A study of Mus musculus with 18 samples.

Results

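Lipid-associated macrophages (LAMs) are the lipid-handling macrophages described in atherosclerotic plaques, adipose tissue and liver, and 10 genes for their surface and secreted markers were followed here: *Trem2*, *Tyrobp*, *Gpnmb*, *Spp1*, *Lpl*, *Fabp5*, *Cd63*, *Cd9*, *Lgals3* and *Cd5l*. They were chosen by name from the 31053 genes of the count table, and all 10 were measured in every library. The study asked what the loss of *Slc7a7*, a cationic and neutral amino acid transporter subunit, does to bone marrow (BM)-derived macrophages loaded with modified LDL. Cells came from 3 wild type mice, labelled Slc7a7 LysM+/+, and 3 knockouts, labelled Slc7a7 LysM-/-, all 12 weeks old and on the C57Bl/6J background. In the knockout mice *Slc7a7* is deleted by Cre from the *Lyz2* (LysM) locus, which is active in myeloid cells, and the BM of all mice was cultured for 7 days with M-CSF or L-cell conditioned medium. From each mouse 100000 cells were kept for 24 h with vehicle (Ctrl), 50 μg/mL Ac-LDL (acetylated) or 100 μg/mL Ox-LDL (oxidized), which gave 18 bulk RNA-Seq libraries in 6 groups of 3, and the labels tie the 3 libraries of a mouse together.

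TREM2 is a lipid-sensing receptor of the macrophage surface that signals through the adaptor TYROBP (DAP12), and it is needed for macrophages to take up the LAM state in lipid-rich tissue. The state is recognised by genes for handling lipid (the secreted lipase LPL and the fatty acid carrier FABP5), lysosomal and membrane proteins (GPNMB, CD63, CD9), and secreted proteins (osteopontin from *Spp1*, galectin-3 from *Lgals3*, and CD5L, also called AIM). Ac-LDL and Ox-LDL are taken up through scavenger receptors and turn macrophages into foam cells.

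Total counts per library were between 1043492 and 1768816, and the 10 genes had between 55 and 8756 counts in a library. *Slc7a7* itself was at 11.1 to 29.3 CPM (a gene's share of the counts of its library, scaled by TMM) in the 9 wild type libraries and at 2.22 to 10.9 CPM in the 9 knockout libraries. *Lyz2*, whose locus carries the Cre, was at 15543 to 30462 CPM in wild type and 7526 to 15337 CPM in knockout libraries, with no overlap. All 10 macrophage identity genes were detected, and sums over marker lists are given in CPM of the library total. Of the lists for other cells, neutrophil genes (7 of 8 detected, *Retnlg* at 0) summed to 69.6–127 CPM in wild type Ctrl, 78.7–218 under Ac-LDL and 143–248 under Ox-LDL, and in knockout cells to 50.5–138, 26.0–64.7 and 64.6–115. Osteoclast genes (7 of 8 detected, *Oscar* at 0) summed to 44.5–55.3, 27.8–61.3 and 25.6–65.4 CPM in the wild type groups and to 51.8–59.6, 32.1–38.6 and 17.5–31.6 in the knockout groups, and the part of either in the results was not tested. Monocyte genes (4 of 4) summed to 52.7 to 136 CPM over all libraries, and dendritic (6 of 6), stromal (6 of 6), adipocyte (3 of 4), lymphoid (2 of 5) and erythroid (3 of 5) genes to at most 4.23, 26.5, 1.77, 0.845 and 2.09 CPM. Replicates were separate mice, 3 per genotype. The sample indices in the labels are lower for wild type than for knockout libraries, and whether the genotypes were processed apart is not stated.

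All 10 genes were well expressed in these cultured macrophages, each with a mean above that of at least 81.7% of the genes tested. The genes lie apart in the genome (GRCm38): *Trem2* at chr17:48346401-48354147, *Tyrobp* at chr7:30413760-30417585, *Gpnmb* at chr6:49036546-49070929, *Cd9* at chr6:125460266-125494791 (minus strand, all others plus) and *Cd63* at chr10:128900989-128912822. *Lpl* is at chr8:68880491-68907448, *Fabp5* at chr3:10012548-10016607, *Spp1* at chr5:104435118-104441050, *Lgals3* at chr14:47367751-47386160 and *Cd5l* at chr3:87357881-87371073. On the scale of CPM per kb of exon, which corrects for annotated exon length, the mean over 18 libraries was highest for *Gpnmb* (721), *Lgals3* (685) and *Spp1* (555). *Tyrobp* (453), *Lpl* (233) and *Cd9* (156) came next, followed by *Cd63* (88.7), *Trem2* (86.6), *Fabp5* (63.2) and *Cd5l* (41.8). Per kb of exon *Trem2* RNA thus lay below that of the adaptor *Tyrobp*, but in CPM it lay above (428 and 302). The exon lengths used differ (4946 and 667 bases), and gene counts do not tell which transcripts the cells made, so this order is uncertain. Of the 10 genes, *Fabp5* had the widest range between libraries (4.36-fold in CPM), then *Lpl* (4.07-fold), and *Trem2* the narrowest (1.39-fold). When the 6 groups were ordered by mean CPM for each gene, 47 of the 50 pairs of neighbours had overlapping libraries. This was not counted for all genes, so it does not set these 10 apart. Nor was overlap within a single comparison counted over all genes, except for the counts summed per mouse. A lack of overlap in the other comparisons below therefore sets no gene apart.

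**Figure D1:**
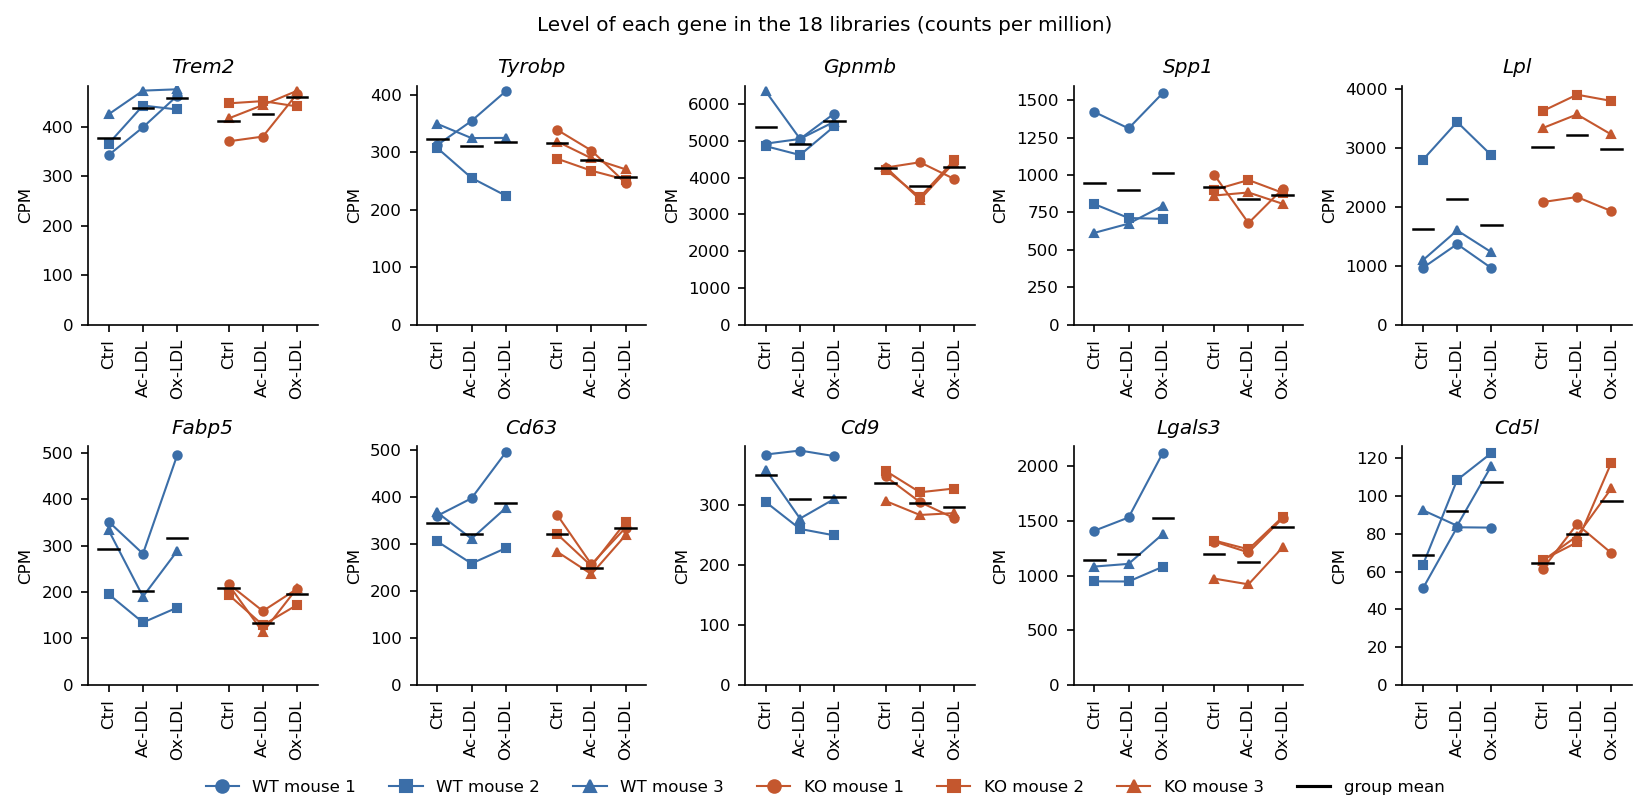
CPM (vertical axis, starting at 0) of the 10 genes in each library, by medium, with lines joining the libraries of a mouse and black bars at the group means of 3 mice. *Lpl* is highest in mouse 2 of either genotype in every medium, *Fabp5* dips with Ac-LDL in all 6 mice, and the *Gpnmb* libraries of the knockout lie below those of the wild type.

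No gene of the 10 passed an adjusted p of 0.05 in any of the 12 comparisons when libraries of a group were treated as unpaired, by edgeR's quasi-likelihood test with adjustment over the 12290 genes tested. In bulk RNA, fewer cells of a state and less RNA per cell cannot be told apart. Against this count of 0 of 10, the test called 0.472% of all genes for Ac-LDL and 1.34% for Ox-LDL against Ctrl in wild type cells, and 0.521% and 2.32% in knockout cells. At an unadjusted p under 0.05, 16 of the 120 values of the 10 genes passed (13.3%, beside 5.92% of the values of all genes), and DESeq2 called 0 of 10 in each comparison too. These 120 values share libraries, and the 10 genes were chosen with earlier results of these data known. The 10 are also better expressed than most genes tested, so the shares over all genes, here and below, are not those of genes of like level. Since the cells of each mouse received each medium, the mouse was then added to the fit as a block. With it, 13 of 60 values passed in the 6 comparisons between media, and these are described gene by gene below, always with the unpaired value. The blocked test called 2 of 10 for Ac-LDL against Ctrl in wild type cells, where 2.16% of all genes were called, and 2 of 10 in knockout cells, beside 2.5% of all genes. For Ox-LDL against Ctrl it called 2 of 10 in wild type (4.39% of all genes) and 2 of 10 in knockout cells (7.18% of all genes). The median log2 fold change of the 10 genes with Ox-LDL was 0.08 in wild type and -0.01 in knockout cells in the blocked fit, beside 0.01 over all genes in either, and 8 and 5 of the 10 values were above 0.

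**Figure D2:**
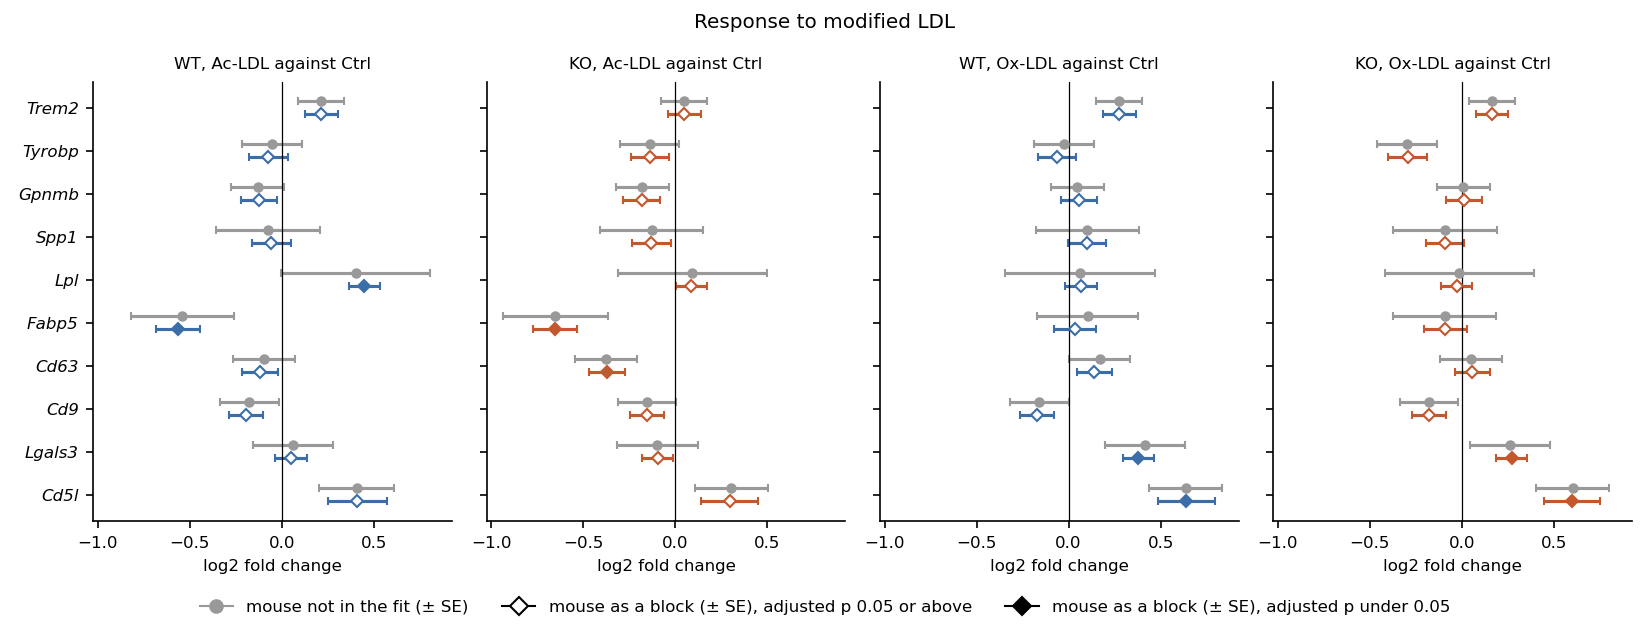
Log2 fold change against Ctrl (horizontal axis) of each gene with Ac-LDL or Ox-LDL in wild type (WT) and knockout (KO) cells, with the mouse left out of the fit (grey circles) or as a block (diamonds, filled where the adjusted p is under 0.05); bars are SE. The filled diamonds are *Lpl* and *Fabp5* for Ac-LDL in wild type, *Fabp5* and *Cd63* for Ac-LDL in knockout, and *Lgals3* and *Cd5l* for Ox-LDL in both genotypes.

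*Trem2* encodes the receptor itself. In wild type mice 1, 2 and 3 it was at 343, 366 and 425 CPM in Ctrl, 399, 443 and 473 under Ac-LDL, and 462, 435 and 475 under Ox-LDL. In knockout mice it was at 370, 447 and 416 CPM in Ctrl, 380, 451 and 444 under Ac-LDL, and 466, 441 and 472 under Ox-LDL. The wild type libraries with Ox-LDL lay above those in Ctrl with no overlap, while the knockout groups overlapped. The difference between these responses did not pass in the unpaired edgeR test (log2 fold change -0.11 ± 0.18, SE). With Ox-LDL the fold change was 1.21 (95% confidence interval 1.01 to 1.45) in wild type and 1.12 (0.935 to 1.34) in knockout cells, and neither passed (edgeR adjusted p = 0.452 and 0.680, or 0.0805 and 0.349 with the block). *Tyrobp*, the adaptor, was at 313, 308 and 350 CPM in wild type Ctrl, 355, 256 and 325 under Ac-LDL and 407, 225 and 325 under Ox-LDL, so that mouse 1 and mouse 2 moved apart. In knockout cells it was at 339, 289 and 319 CPM in Ctrl, 303, 268 and 290 under Ac-LDL and 247, 252 and 271 under Ox-LDL, lower with Ox-LDL in 3 of 3 mice and with no overlap (fold change 0.813, 95% interval 0.645 to 1.02, adjusted p = 0.483, or 0.0886 with the block). Neither gene was called in the fit of all libraries, unpaired or blocked. With the block, library size scaling called *Trem2* with Ox-LDL in wild type cells (fold 1.23, adjusted p = 0.0463), and a fit of the knockout libraries alone called *Tyrobp* with Ox-LDL (0.822, adjusted p = 0.0324).

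Of the membrane proteins, *Gpnmb*, a glycoprotein of lysosomes and the cell surface, was the most abundant of the 10 genes and was called in no medium, with or without the block. In wild type mice it was at 4932, 4863 and 6356 CPM in Ctrl, 5060, 4621 and 5061 under Ac-LDL and 5753, 5405 and 5529 under Ox-LDL. The knockout libraries were at 4278, 4221 and 4293 CPM, 4424, 3473 and 3408 CPM, and 3969, 4479 and 4416 CPM in the same order. With Ox-LDL against Ctrl the fold change was 1.03 (95% interval 0.839 to 1.27) in wild type and 1.01 (0.817 to 1.24) in knockout cells. *Cd9*, a tetraspanin of the plasma membrane, was at 250 to 392 CPM over all libraries and was lower with Ox-LDL than in Ctrl in 3 of 3 mice of each genotype, with overlapping groups. Its fold change was 0.896 (0.713 to 1.13) in wild type and 0.882 (0.703 to 1.11) in knockout cells, with adjusted p = 0.839 and 0.732, or 0.417 and 0.307 with the block. *Cd9* is overlapped by *Gm28809* and *Gm26728* on the other strand, and *Gm28809* had at most 2 counts.

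*Cd63*, a tetraspanin of late endosomes and lysosomes, was lower with Ac-LDL in the knockout. It was at 362, 321 and 284 CPM in knockout Ctrl, 257, 253 and 236 under Ac-LDL and 335, 347 and 319 under Ox-LDL. All 3 knockout libraries with Ac-LDL thus lay below all others of the knockout. In wild type mice it was at 360, 306 and 367 CPM in Ctrl, 398, 259 and 311 under Ac-LDL and 495, 291 and 377 under Ox-LDL, where the value with Ac-LDL was higher in mouse 1 and lower in the other two. The knockout change with Ac-LDL was -0.37 ± 0.10 (log2 fold change ± SE, a fold of 0.774) with the block (adjusted p = 0.0278) and -0.38 ± 0.17 without it (adjusted p = 0.591). The call was lost without any 1 of the 3 knockout mice (adjusted p = 0.292, 0.212 and 0.159), with DESeq2 (0.0617) and with library size scaling (0.0763), all with the block. Of the 31-base words of *Cd63* transcripts, 15.9% also occur in other genes, most often in *Cd63-ps*, which is not listed in the table, so its level is less certain than that of *Lgals3*, *Cd5l*, *Trem2* or *Tyrobp*, whose words occur in no other gene on the same strand. In wild type cells the blocked value with Ac-LDL was -0.12 ± 0.10 (adjusted p = 0.740).

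*Fabp5*, a cytosolic carrier of fatty acids, was lower with Ac-LDL than in Ctrl in 6 of 6 mice. In wild type mice it was at 352, 195 and 333 CPM in Ctrl, 283, 134 and 190 under Ac-LDL and 495, 167 and 289 under Ox-LDL. In knockout mice it was at 218, 194 and 216 CPM in Ctrl, 159, 129 and 114 under Ac-LDL and 207, 172 and 209 under Ox-LDL. The wild type groups overlapped since mouse 2 was low in every medium, whereas in knockout cells Ac-LDL stood below Ctrl with no overlap. With the block, Ac-LDL lowered *Fabp5* by a log2 fold change of -0.56 ± 0.12 (SE) in wild type (a fold of 0.676, adjusted p = 0.00365) and -0.65 ± 0.12 in knockout cells (a fold of 0.636, adjusted p = 0.00084). Without the block the adjusted p was 0.722 and 0.580. Of the mice left out in turn, wild type mouse 3 took the call in wild type (-0.42, adjusted p = 0.250) and knockout mouse 3 that in the knockout (-0.51, adjusted p = 0.107). With Ox-LDL its fold change was 1.07 (95% interval 0.724 to 1.59) in wild type and 0.937 (0.627 to 1.40) in knockout cells, without the block. Copies of *Fabp5* share 9.21% of its words, and none of the copies named by that search (*Gm6166*, *Gm14328*, *Gm6100*) is listed in the table.

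*Lpl*, the secreted lipase that frees fatty acids from lipoprotein triglyceride, told the mice apart more than the media. In wild type mice it was at 963, 2796 and 1092 CPM in Ctrl, 1366, 3440 and 1599 under Ac-LDL and 959, 2875 and 1228 under Ox-LDL. The knockout libraries were at 2080, 3626 and 3337 CPM in Ctrl, 2165, 3903 and 3568 under Ac-LDL and 1927, 3797 and 3228 under Ox-LDL. It was higher with Ac-LDL than in Ctrl in 6 of 6 mice, by 1.23- to 1.46-fold in wild type mice, although the groups overlapped widely. With the block Ac-LDL raised *Lpl* in wild type cells by 0.45 ± 0.09 (log2, SE; a fold of 1.36, adjusted p = 0.00131), and in knockout cells the value was 0.09 ± 0.08 (adjusted p = 0.758). The difference between these responses did not pass (-0.36 ± 0.12, adjusted p = 1 with the block). Unpaired, the wild type value was 0.40 ± 0.41 (adjusted p = 0.920), and it turned to -0.13 without the Ac-LDL library of wild type mouse 2. With the block, leaving out all of wild type mouse 3 gave 0.40 (adjusted p = 0.0871).

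The secreted protein osteopontin, a ligand of integrins and CD44, is encoded by *Spp1*. It was at 1421, 805 and 613 CPM in wild type Ctrl, 1311, 712 and 675 under Ac-LDL and 1548, 707 and 794 under Ox-LDL, so mouse 1 was high in each medium. In knockout mice it was at 1001, 900 and 863 CPM, 678, 966 and 883 CPM, and 908, 881 and 807 CPM. The fold change with Ox-LDL was 1.07 (95% interval 0.717 to 1.61) in wild type and 0.939 (0.627 to 1.40) in knockout cells, and no medium gave a call with or without the block. *Spp1* overlaps *Gm42793* on its own strand, a gene that is not listed in the table.

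*Lgals3* and *Cd5l* were the pair called with Ox-LDL in both genotypes once the mouse was in the fit. Galectin-3, from *Lgals3*, is a secreted lectin that binds β-galactosides. *Lgals3* was at 1411, 948 and 1083 CPM in wild type Ctrl, 1533, 946 and 1108 under Ac-LDL and 2124, 1081 and 1381 under Ox-LDL. The knockout libraries were at 1313, 1322 and 973 CPM, 1213, 1241 and 920 CPM, and 1526, 1538 and 1260 CPM. It was higher with Ox-LDL than in Ctrl in 6 of 6 mice, while the groups overlapped. With the block the log2 fold change was 0.38 ± 0.09 (SE; a fold of 1.30, adjusted p = 0.00424) in wild type and 0.27 ± 0.08 (a fold of 1.21, adjusted p = 0.0454) in knockout cells, and unpaired the adjusted p was 0.555 and 0.709. The wild type call was lost without wild type mouse 1 (0.27, adjusted p = 0.125) or mouse 3 (0.39, adjusted p = 0.0516), and the knockout call without any 1 of the 3 knockout mice (adjusted p = 0.0747, 0.119 and 0.414).

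CD5L, a secreted scavenger receptor cysteine-rich protein named for inhibiting the apoptosis of macrophages, had the largest relative rise of the 10 genes with Ox-LDL. *Cd5l* was at 51.1, 63.5 and 92.6 CPM in wild type Ctrl, 83.5, 109 and 84.3 under Ac-LDL and 83.3, 123 and 116 under Ox-LDL. In knockout mice it was at 61.5, 66.2 and 65.8 CPM in Ctrl, 85.1, 75.5 and 78.9 under Ac-LDL and 69.9, 118 and 104 under Ox-LDL. Every knockout library with either LDL lay above the 3 in Ctrl, and in wild type only mouse 3 did not follow with Ac-LDL. With Ox-LDL and the block the log2 fold change was 0.64 ± 0.16 (SE; a fold of 1.56, adjusted p = 0.00888) in wild type and 0.60 ± 0.15 (a fold of 1.51, adjusted p = 0.0100) in knockout cells. Unpaired, these were 0.64 ± 0.20 (adjusted p = 0.154) and 0.60 ± 0.20 (adjusted p = 0.131), and the test called *Cd5l* in wild type cells without the Ctrl library of mouse 3 (adjusted p = 0.0375) and in the knockout without the Ox-LDL library of mouse 1 (adjusted p = 0.0424). With the block, DESeq2 did not call it (adjusted p = 0.104 and 0.0699), nor did edgeR without wild type mouse 2 (0.253) or without knockout mouse 2 (0.191) or 3 (0.114). With Ac-LDL the values were 0.41 ± 0.16 and 0.30 ± 0.16 with the block (adjusted p = 0.256 and 0.460).

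The sequence before a RefSeq start is shown for *Cd5l* and *Lgals3*, the pair called with Ox-LDL, for *Cd63*, and for *Trem2*, the receptor after which the state is often named. For *Cd63* and *Lgals3* this start is internal, and the windows lie inside the gene spans given above. RefSeq (GRCm38.p6) promoter entries matched 7 of the 10 genes (*Cd5l*, *Lgals3*, *Cd63*, *Trem2*, *Gpnmb*, *Cd9* and *Spp1*). All 4 printed lie on the plus strand and are written 5′ to 3′ up to the base before the RefSeq start, except that *Lgals3* stops where the first exon of a GENCODE transcript begins. Capitals mark the letters of the motifs searched on both strands, TGANTCA (AP-1), CACGTG and CATGTG (E-boxes), AGGTCA (nuclear receptors), GAGGAA (PU.1 core) and TATAAA.
*Cd5l*, chr3:87357631-87357880: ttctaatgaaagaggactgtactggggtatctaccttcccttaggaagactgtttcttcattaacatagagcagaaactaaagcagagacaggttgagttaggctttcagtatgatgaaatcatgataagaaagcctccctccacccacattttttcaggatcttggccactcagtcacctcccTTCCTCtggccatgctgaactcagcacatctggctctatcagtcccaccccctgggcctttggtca
*Lgals3*, chr14:47373610-47373812: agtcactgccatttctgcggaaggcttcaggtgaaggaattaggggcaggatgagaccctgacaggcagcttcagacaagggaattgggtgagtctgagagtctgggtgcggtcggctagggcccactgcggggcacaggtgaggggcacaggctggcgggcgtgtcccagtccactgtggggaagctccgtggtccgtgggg
*Cd63*, chr10:128909095-128909344: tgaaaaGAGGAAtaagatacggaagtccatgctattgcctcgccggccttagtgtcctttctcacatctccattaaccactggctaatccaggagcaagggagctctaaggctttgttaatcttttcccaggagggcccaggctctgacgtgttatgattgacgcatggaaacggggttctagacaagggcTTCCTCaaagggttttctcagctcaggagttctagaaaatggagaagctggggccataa
*Trem2*, chr17:48346151-48346400: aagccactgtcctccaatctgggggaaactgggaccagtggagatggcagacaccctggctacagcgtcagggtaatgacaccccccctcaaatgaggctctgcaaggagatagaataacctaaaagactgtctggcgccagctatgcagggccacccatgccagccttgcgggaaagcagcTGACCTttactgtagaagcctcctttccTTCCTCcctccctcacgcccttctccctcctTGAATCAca
Over the 250 bases before the start, GAGGAA was found in *Cd5l*, *Cd63*, *Trem2* and *Spp1* and in 23.3% of all 32851 promoters, and AGGTCA and TGANTCA in *Trem2* alone of the 7 genes (14% and 6.75% of all promoters). CATGTG was found in *Cd9* (12.3% of all promoters), TATAAA in *Spp1* (12.4%) and CACGTG in no window of the 7 genes (6.02%). *Cd5l* and *Lgals3* shared none of these motifs, since the *Lgals3* window held none, and their windows differed in base composition (46.8% and 66% G and C). No match overlapped another in the 7 genes. A match or its absence says nothing here about binding.

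Between the 2 lipoproteins, *Fabp5*, *Cd63* and *Lgals3* were higher and *Lpl* was lower with Ox-LDL than with Ac-LDL in 6 of 6 mice. The doses differ (100 and 50 μg/mL), so lipoprotein and dose cannot be told apart in this contrast. Unpaired, 0 of 10 genes passed in either genotype, where 0.00814% of all genes were called in wild type and 0.0651% in knockout cells. With the block 2 of 10 passed in wild type (0.732% of all genes) and 3 of 10 in knockout cells (1.38% of all genes). *Fabp5* rose by 0.60 ± 0.12 (log2, SE; adjusted p = 0.00558) in wild type and 0.56 ± 0.12 (adjusted p = 0.0111) in knockout cells. *Lpl* fell in wild type cells (-0.38 ± 0.09, adjusted p = 0.0191) and was at -0.12 ± 0.08 in the knockout (adjusted p = 0.763). In knockout cells *Cd63* (0.43 ± 0.10, adjusted p = 0.0155) and *Lgals3* (0.37 ± 0.09, adjusted p = 0.0173) rose too, and in wild type cells these were at 0.26 ± 0.10 (adjusted p = 0.348) and 0.33 ± 0.09 (adjusted p = 0.0622). Of these 5 calls, wild type *Fabp5* was lost without mouse 1 (adjusted p = 0.0694), *Lpl* without mouse 1 or 3 (0.191 and 0.168), knockout *Fabp5* without mouse 2 or 3 (0.0599 and 0.424), and *Cd63* and *Lgals3* without any 1 knockout mouse (0.0502 to 0.386). Unpaired, the *Lpl* value of -0.34 turned to 0.18 without the Ac-LDL library of wild type mouse 2.

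Between genotypes, *Gpnmb* was lower and *Lpl* higher in knockout than in wild type means in every medium, and neither passed. Unpaired, 0 of 10 genes were called in Ctrl, with Ac-LDL or with Ox-LDL, and over all genes the test called 0.00814%, 0.0163% and 0.00814%. *Gpnmb* averaged 5383 ± 843 CPM (SD, n = 3) in wild type and 4264 ± 38.2 CPM in knockout Ctrl cells, 4914 ± 254 and 3768 ± 569 CPM with Ac-LDL, and 5562 ± 176 and 4288 ± 278 CPM with Ox-LDL. The 9 knockout libraries all lay below the 9 wild type ones, at folds of 0.792, 0.767 and 0.771, with 95% intervals on the log2 scale of -0.64 to -0.04 in Ctrl and -0.68 to -0.08 under Ac-LDL. With Ox-LDL the interval was -0.68 to -0.07. The adjusted p was 1, 0.990 and 0.933, and the unadjusted p of the same edgeR fit 0.0298, 0.0147 and 0.0166.

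Since the 3 libraries of a mouse are not separate animals, the counts of its 3 media were also summed and the 6 mice compared. By this comparison 0 of 10 genes passed (edgeR), with 0.00789% of all 12673 genes called. *Gpnmb* was at 5273, 4970 and 5635 CPM in the wild type mice and 4233, 4025 and 4042 CPM in the knockout mice (log2 fold change -0.37 ± 0.15, SE; adjusted p = 0.980). It was the 1 gene of 10 whose mice did not overlap, where 9.56% of all genes did not overlap, and its two-sided exact permutation p of 0.1 is the smallest that 3 against 3 mice can give. *Lpl* was at 1096, 3012 and 1311 CPM against 2061, 3782 and 3388 CPM (0.77 ± 0.34, adjusted p = 0.980). *Fabp5* was at 380, 166 and 270 CPM against 197, 164 and 179 CPM (-0.59 ± 0.23, adjusted p = 0.980). Wild type mouse 2 had the *Lpl* and *Fabp5* levels of the knockout mice, so these groups overlapped, with exact permutation p = 0.2 and 0.3. With no filter on low counts edgeR called *Lpl* (adjusted p = 0.00172) and *Fabp5* (0.00182) in this comparison, *Lpl* in Ctrl (0.000108), and both with Ox-LDL (0.00159 and 0.00553), while DESeq2 on the filtered genes called neither.

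**Figure D3:**
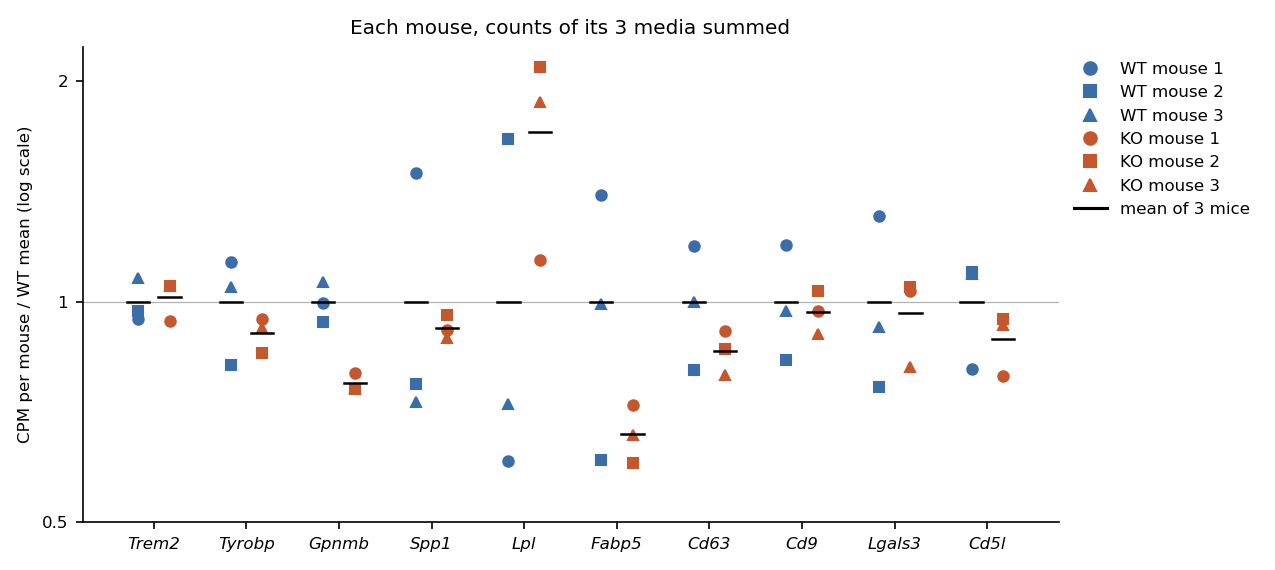
Level of each gene in each mouse, its 3 media summed, divided by the wild type (WT) mean (vertical axis, log scale), with bars at the means of 3 mice. Only for *Gpnmb* do the 3 knockout (KO) mice lie apart from the 3 wild type mice, and for *Lpl* and *Spp1* 1 wild type mouse stands away from the other two.

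For the remaining 7 genes the summed knockout means were between 0.857 (*Cd63*) and 1.01 (*Trem2*) of the wild type means, each with overlapping mice. The interval of the difference was narrow for *Trem2*, at a fold of 1.09 (95% interval 0.909 to 1.30) in Ctrl, 0.970 (0.811 to 1.16) with Ac-LDL and 1.01 (0.841 to 1.2) with Ox-LDL. It was wide for *Spp1*, at 0.939 (0.627 to 1.41) with Ac-LDL and 0.853 (0.569 to 1.28) with Ox-LDL. *Cd63* with Ac-LDL was at 398, 259 and 311 CPM in wild type and 257, 253 and 236 CPM in knockout cells, with no overlap (fold 0.773, 95% interval 0.607 to 0.983, adjusted p = 0.990). In Ctrl the median log2 fold change of the 10 genes was -0.04, with Ac-LDL -0.10 and with Ox-LDL -0.18, against 0.00, -0.00 and -0.01 over all genes. Of the 10 values 7 were below 0 in Ctrl, 9 under Ac-LDL and 8 under Ox-LDL. The 10 values of a comparison come from the same libraries and are not independent.

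The response to LDL was not shown to differ between the genotypes for any of the 10 genes. In the unpaired test of the difference (knockout response minus wild type response), 0 of 10 genes and 0% of all genes passed for Ac-LDL, and likewise 0 of 10 and 0% for Ox-LDL. At an unadjusted p under 0.05 the edgeR test passed 327 and 338 genes, and DESeq2 called 1 and 0. With the block, 0 of 10 passed for Ac-LDL (0.0407% of all genes) and 0 of 10 for Ox-LDL (0% of all genes). *Lpl* had the largest blocked difference for Ac-LDL, -0.36 ± 0.12 (log2, SE; adjusted p = 1). For Ox-LDL the unpaired differences of all 10 genes were below 0, from -0.02 (*Cd9*) to -0.27 (*Tyrobp*), each with an interval that includes 0. Their median was -0.12, beside -0.02 over all genes. The 10 values come from the same libraries, so their shared sign is not 10 separate results.

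How the levels were spread over mice and media differed between the genes. Within a genotype, the variance of log2 CPM over 3 mice and 3 media was split into a part for mouse, a part for medium and a rest. In wild type cells the mouse part was larger than the medium part for 8 of the 10 genes, in knockout cells for 3 of 10. For *Lpl* the mouse took 90.8% in wild type and 97.7% in knockout cells, with 8.52% and 1.67% for the medium. Its SD between mice, 0.79 and 0.47 on the log2 scale, was above that of 99.3% and 99.1% of the 6754 genes of at least 20 CPM. *Spp1* differed: the mouse took 94.2% in wild type cells, where mouse 1 averaged 1427 CPM over its media and the others 741 and 694, but 10.4% in knockout cells, where the mice averaged 863, 916 and 851 CPM. *Fabp5* and *Cd63* had mouse parts of 71.2% and 70.3% in wild type cells and 9.87% and 13.5% in knockout cells, where the medium took 80.2% and 80.3%. For *Cd5l* the medium took more than the mouse in both genotypes, 51.2% against 28.3% and 58.6% against 11.1%. Over all 6754 genes the median mouse part was 40.5% in wild type and 20.9% in knockout cells, and the median medium part 19.7% and 32.4%. The medians over all genes thus also had the mouse part larger in wild type and the medium part larger in knockout cells. Whether these spreads differ between genotypes was not tested.

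**Figure D4:**
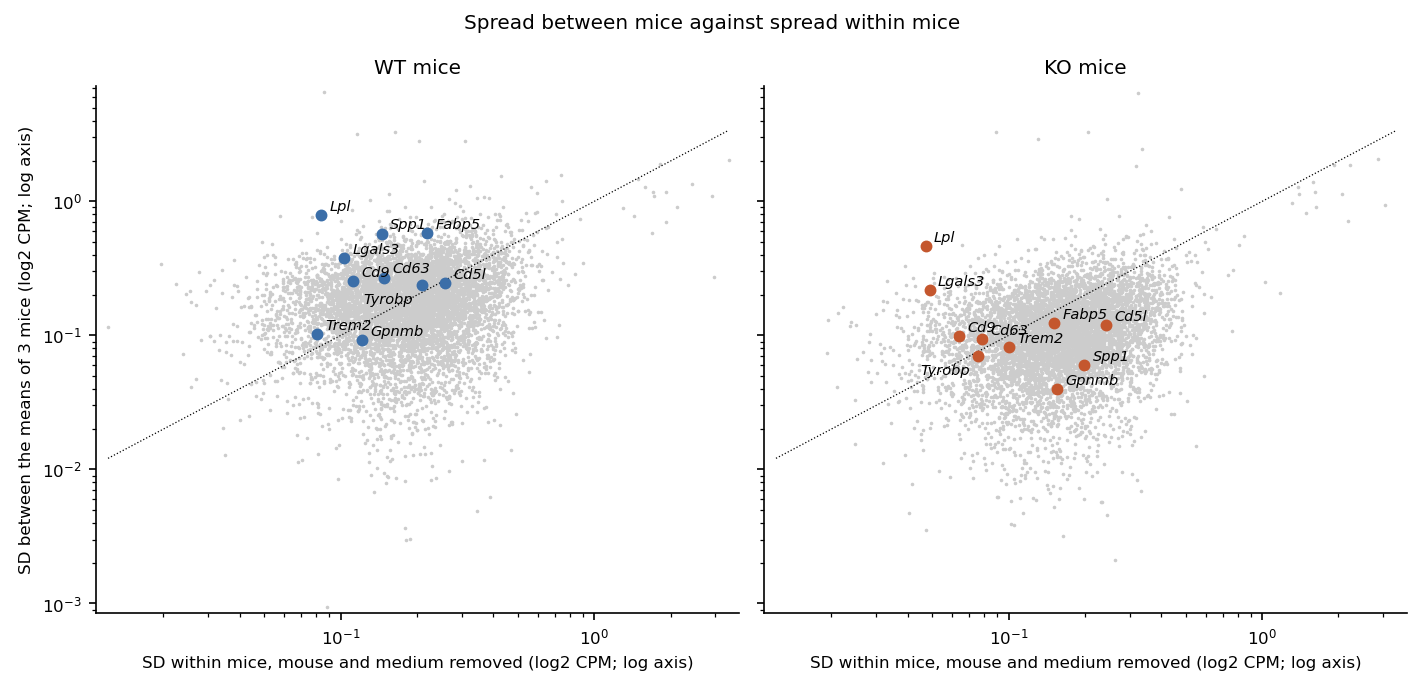
SD between the means of 3 mice (vertical axis) against the SD left within mice once mouse and medium are removed (horizontal axis), in log2 CPM on log axes, for the 6754 genes of at least 20 CPM (grey) and the 10 genes (coloured) in wild type (WT) and knockout (KO) cells; the dotted line marks equal SDs. *Lpl* and *Lgals3* lie far above the line in both panels, *Spp1* above it in wild type and below it in knockout.

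Wild type mouse 1 had the highest *Spp1*, *Fabp5*, *Cd9* and *Lgals3* in each medium and wild type mouse 2 the lowest *Tyrobp*, *Gpnmb*, *Fabp5*, *Cd63*, *Cd9* and *Lgals3* in each. In the 3 libraries of wild type mouse 1, genes for ribosomal proteins took 4.0 to 4.38% of the counts, and in the other 15 libraries 2.38 to 3.62%. Their part in these results was not tested.

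The genes whose log2 CPM followed each of the 10 most closely are given as a description, by Pearson's r over 18 libraries that share mice and media. *Lpl* was closest to *Myo1e* (r = 0.961), *Pcp4l1* (0.943) and *Asph* (0.929), and *Spp1* to *Ran* (0.955), *Pgk1* (0.912) and *Hspa9* (0.904). *Fabp5* and *Cd63* were each among the 3 genes closest to the other (r = 0.911), and *Akr1a1* was the closest to both (0.926 and 0.939). *Lgals3* was closest to *Esd* (0.920), *Cd9* to *Bag1* (0.915), *Tyrobp* to *Rpl13a* (0.887), *Cd5l* to *Wwp1* (0.856), *Trem2* to *Cwc27* (0.842) and *Gpnmb* to *Hpse* (0.831). Apart from *Fabp5* and *Cd63*, none of the 10 was among the 3 closest genes of another.

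Other genes around these 10 were taken from lists chosen for their function, and some passed the unpaired test. Earlier results of these data were known when the lists were drawn up. Calls from these lists are therefore a description and not an independent test. For the counts from these lists, the shares of all genes called in wild type and knockout cells serve as background. Unpaired these shares were 0.472% and 0.521% for Ac-LDL and 1.34% and 2.32% for Ox-LDL against Ctrl. With the block they were 2.16% and 2.5% for Ac-LDL and 4.39% and 7.18% for Ox-LDL. Of 16 genes for TREM2-TYROBP signalling and shedding, all tested, 2 fell with Ox-LDL in wild type cells and 2 fell and 1 rose in knockout cells in the unpaired test, and 0 passed with Ac-LDL. The 2 that fell were *Ptpn6* and *Adam17*. *Ptpn6*, a phosphatase that restrains such signalling, went from 317 to 194 CPM in wild type (fold 0.611, adjusted p = 0.00180) and from 323 to 197 CPM in knockout cells (0.609, adjusted p = 0.00114). *Adam17*, a protease that sheds TREM2, went from 439 to 239 CPM (0.547, adjusted p = 0.00735) and from 521 to 256 CPM (0.491, adjusted p = 0.00100). *Vav3*, a guanine nucleotide exchange factor, rose in knockout cells from 114 to 169 CPM (adjusted p = 0.0479). With the block *Adam17* and *Ptpn6* fell with Ac-LDL as well, in wild type (folds 0.672 and 0.746, adjusted p = 7.93e-05 and 0.00836) and in knockout cells (0.669 and 0.8, adjusted p = 2.99e-05 and 0.0495). The list's median log2 fold change with Ox-LDL was -0.06 in both genotypes, beside 0.01 and 0.00 over all genes. Of 7 receptors that pair with TYROBP, 5 were tested and 0 passed unpaired, and with the block *Clec5a* fell with Ox-LDL in both genotypes (folds 0.697 and 0.543, adjusted p = 0.0464 and 0.000143) and with Ac-LDL in the knockout (0.652, adjusted p = 0.0136).

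Of 25 other genes of the LAM state, all tested, 2 rose with Ox-LDL in wild type cells (1.34% of all genes called) and 1 in knockout cells (2.32%). None fell, and 0 passed with Ac-LDL in the unpaired test. *Cd36*, the scavenger receptor for Ox-LDL, rose from 394 to 1194 CPM in wild type (fold 3.03, adjusted p = 2.06e-05) and from 496 to 1520 CPM in knockout cells (3.07, adjusted p = 1.33e-05). *Creg1*, a lysosomal glycoprotein, rose from 597 to 1033 CPM in wild type cells (1.73, adjusted p = 0.0125). With the block, 2 rose and 1 fell with Ac-LDL in either genotype (2.16% of all genes called in wild type, 2.5% in knockout cells). *Cd36* was among those that rose, from 394 to 646 CPM in wild type (1.63, adjusted p = 2.25e-05) and from 496 to 751 CPM in knockout cells (1.5, adjusted p = 0.00025). With Ox-LDL 5 rose and 2 fell in wild type (4.39% of all genes called) and 5 rose and 4 fell in knockout cells (7.18%) in that fit. The list's blocked median log2 fold change was 0.10 and -0.03, beside 0.01 over all genes in either. Of 14 genes for lipases and fatty acid uptake, a list that shares *Cd36*, *Plin2*, *Fabp4* and *Lipa* with the former, 12 were tested: *Acsl1*, an acyl-CoA synthetase, fell with Ox-LDL in wild type (0.596, adjusted p = 0.0416) and knockout cells (0.576, adjusted p = 0.0132) and with Ac-LDL in the knockout (0.570, adjusted p = 0.0303), and *Cd36* was the other gene called.

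Of 13 other tetraspanins, only *Cd82* passed unpaired in these 4 comparisons with Ctrl (0.472% to 2.32% of all genes called). It fell in each. With Ac-LDL it went from 79.4 to 32.9 CPM in wild type (fold 0.416, adjusted p = 0.000157) and from 70.1 to 39.4 CPM in knockout cells (0.564, adjusted p = 0.0154), and with Ox-LDL to 39.7 CPM (0.495, adjusted p = 0.000991) and 36.3 CPM (0.514, adjusted p = 0.00148). Of 7 osteopontin receptors and 4 other galectins 0 passed unpaired, and with the block *Itga4*, an integrin subunit, fell with Ox-LDL in both genotypes (folds 0.730 and 0.715, adjusted p = 0.00223 and 0.000618), *Lgals3bp*, a galectin ligand, in both (0.607 and 0.617, adjusted p = 0.000305 and 0.000160), and *Cd44* with Ac-LDL in wild type cells (0.797, adjusted p = 0.0461). Of 12 transcription factors named as regulators of such genes, all tested, *Nr1h3* (LXRα) and *Spi1* (PU.1) fell with Ox-LDL in both genotypes: *Nr1h3* to a fold of 0.543 (adjusted p = 0.0217) in wild type and 0.545 (0.0138) in knockout cells, and *Spi1* to 0.638 (0.00409) and 0.708 (0.0274). In the comparisons between genotypes 0 genes of these 8 lists passed unpaired.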

How the data were processed

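BM-derived macrophages of 6 mice were measured by bulk RNA-Seq in 18 libraries. The authors used Trim Galore on single-end reads of stranded total RNA libraries, mapped these to mm10 by STAR and quantified genes of Ensembl release 93 with salmon in an nf-core workflow, and deposited 1 table of estimated counts; the strand setting of the counting is not given in the sources used here. Here the estimated counts were rounded to whole numbers. Genes were kept by filterByExpr (min.count 2, min.total.count 10), scaled by TMM and tested with edgeR 4.0.16 in R 4.3.3 (quasi-likelihood F test, 6 groups in 1 fit, Benjamini-Hochberg adjustment over all genes, threshold 0.05). DESeq2 1.42.0 was an alternative. Totals of 1043492 to 1768816 counts limit the precision for low genes.

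The labels give the 3 libraries of a mouse 1 replicate number within a genotype. Over 6754 genes, deviations from the group means correlated between libraries of a mouse (r = 0.112 to 0.564, over 0.1 in 18 of 18 pairs), so the mouse was also fitted as a block (8 residual degrees of freedom). Comparisons with the same Ctrl libraries share them. The genes named are the 10, *Slc7a7*, up to 3 called genes of each list and comparison with the smallest p among those of at least 5 CPM, and the 3 genes of at least 20 CPM with the highest Pearson r to each of the 10; *Lyz2*, copies and overlapping genes were named after their values were seen. The 10 genes and the lists were chosen with earlier results of these data known. Gene models are GENCODE on GRCm38, words of 31 bases were compared between transcripts, and levels in CPM per kb use the union of exons. Exact permutation tests used scipy 1.17.1. The result of 1 listed gene is not reported here.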

Additional observations from a re-analysis of the deposited data

How the results depend on the processing

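Without the block, 0 of the 10 genes were called in each of the 12 comparisons, and this count stayed 0 with DESeq2, the default filterByExpr filter and library size scaling. With the replicate block by mouse it was 2 for Ac-LDL and 2 for Ox-LDL against Ctrl in either genotype, and 2 in wild type and 3 in knockout cells between the lipoproteins. With no filter on low counts it was 1 for Ox-LDL in wild type, 1 for Ac-LDL and 1 for Ox-LDL in knockout cells, 1 between the lipoproteins in wild type cells, 1 between genotypes in Ctrl, 2 with Ox-LDL and 2 for the summed counts. With only the libraries compared it was 1 for Ac-LDL and 1 for Ox-LDL in knockout cells and 2 between the lipoproteins there. Across genotypes the replicate number pairs no animals (r = -0.106 to 0.119 over 9 pairs of mice and media), and as a block it gave 1 call in Ctrl (*Lpl*). Leaving out 1 library gave 0 to 1 calls for Ox-LDL in either genotype. The cause of these shifts was not tested.

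The *Lpl* log2 fold change ranged over left-out libraries from -0.13 (without the Ac-LDL library of wild type mouse 2) to 1.06 for Ac-LDL in wild type cells, and from -0.98 to 0.18 (without that library) between the lipoproteins.

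Alternatives to the replicate block were chosen after seeing the data. With DESeq2 the blocked count was 1 for Ox-LDL in wild type, 1 for Ac-LDL and 1 for Ox-LDL in knockout cells, with library size scaling 1 for Ac-LDL in knockout cells, and with wild type libraries only 1 between the lipoproteins. It was 3 for Ox-LDL in wild type with library size scaling (*Trem2* added), for Ox-LDL in knockout cells with knockout libraries only (*Tyrobp* added), and between the lipoproteins in wild type cells with DESeq2 (*Lgals3* added). Leaving out 1 mouse gave 1 to 2 for Ac-LDL and 1 for Ox-LDL in wild type, 0 to 1 for either in knockout cells, and 0 to 3 in wild type and 0 to 1 in knockout cells between the lipoproteins. The direction of the 13 blocked calls was kept in each of these. By the longest transcript, *Lpl* came 4th and *Tyrobp* 5th in level per kb. By Spearman's rho, 17 of the 30 closest genes stayed among the 3 closest.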

Other observations

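Among the other genes of the LAM state and the other tetraspanins, some were called with the mouse as a block and not by the unpaired test. *Apoe*, the apolipoprotein that carries cholesterol out of macrophages, rose with Ac-LDL from 807 to 1222 CPM in wild type (fold 1.52, edgeR adjusted p = 0.00107) and from 570 to 781 CPM in knockout cells (1.35, adjusted p = 0.0306). *Ctsz*, a lysosomal cysteine protease, fell with Ac-LDL from 549 to 408 CPM in wild type (0.733, adjusted p = 0.0142) and from 524 to 368 CPM in knockout cells (0.697, adjusted p = 0.00230). *Mmp12*, the macrophage elastase, was higher with Ox-LDL than with Ac-LDL, at 184 and 107 CPM in wild type (1.69, adjusted p = 0.0114) and 295 and 165 CPM in knockout cells (1.76, adjusted p = 0.000766), at doses that differ. *Lilrb4a*, an inhibitory receptor, rose with Ox-LDL in knockout cells from 587 to 844 CPM (1.44, adjusted p = 0.000152), and *Cd81*, a tetraspanin, from 77.3 to 113 CPM (1.46, adjusted p = 0.00749).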
